A study of Mus musculus with 2 samples.

Results

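The sites examined here are those called in KLF6 chromatin immunoprecipitation (ChIP-seq) for which the nearest gene start belonged to a small RNA gene. They were chosen by the description of the assigned gene in the authors' annotated lists, where it cites RFAM, a database of RNA families, or miRBase, a database of microRNAs, at any distance. Any small RNA gene described from another source would be counted among the other sites. Experiment 1 held 97 such sites among 742 (13.1%, exact interval 10.7 to 15.7), and experiment 2 held 113 among 901 (12.5%, interval 10.4 to 14.9). With sites that overlap between the lists counted once, they were 197 distinct sites of 1531. The assigned genes were 161 in number and short, with a median length of 112 bp (range 68 to 335).

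The samples were 1 library pool of precipitated DNA and 1 of input DNA from a mouse hepatocellular carcinoma cell line. The cells had received a plasmid for full-length KLF6 joined to a V5 tag, and the antibody recognised V5. Any KLF6 binding seen is therefore that of the introduced protein. Both groups came from the same kind of cells. The input was DNA taken without precipitation, and no precipitation from cells lacking the tag was analysed here. Sites that would arise without the tag could thus not be told apart from KLF6 binding. The name of the cell line and the number of clones are not given in the labels. The sites hold no expression values, so the labelled cell type could not be checked against markers. Sites were called in 2 experiments, and experiment 1 pooled 2 sequencing runs. Tag counts, fold enrichment and false discovery rate (FDR) are the authors' own values for each site. In which library the tags were counted, and which background the fold refers to, is not said in the lists. Read totals are unknown, so levels were compared within a list, and values of the same site in both lists are set side by side without scaling for depth. With 1 precipitated sample and no values per library, no test across replicates could be made. All comparisons below are therefore descriptions, and the intervals cover counting error or the spread between sites only.

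KLF6 is a zinc finger transcription factor that binds GC-rich DNA. Small RNA genes fall into families with separate machinery. U6, 7SK and 5S RNA are made by RNA polymerase III, whereas U1 and U2 RNA and most microRNA precursors are made by RNA polymerase II. U6 and U1 are parts of the spliceosome, 5S RNA is part of the large ribosomal subunit, 7SK holds back an elongation factor of RNA polymerase II, and SNORA17 is a guide RNA of the H/ACA kind. The mouse genome carries many copies of these families, a large part of them thought to be silent pseudogenes. Reads from near-identical copies are hard to place. How the alignment treated them is not stated in the sources used here, and values at sites that overlap a copy are uncertain.

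The microRNA genes among the assigned genes numbered 16, and 13 of them matched RefSeq (assembly GRCm38.p6), through which 24 mature sequences were found. Those printed belong to the microRNA with a site in both experiments (miR-761), to the one whose gene a site overlapped (miR-374b, which matched the listed name mir-374 only as a synonym in RefSeq), and to 3 well studied microRNAs whose sites lay far away. Capitals mark the seed, bases 2 to 8 from the 5′ end, which pairs with target messages. All 24 seeds differed from one another, so no seed family was represented by more than 1 of the matched mature sequences.
miR-761: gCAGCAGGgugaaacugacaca
miR-374b-5p: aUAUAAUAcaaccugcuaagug
miR-374b-3p: gGUUGUAUuaucauuguccgag
miR-17-5p: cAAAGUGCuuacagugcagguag
miR-204-5p: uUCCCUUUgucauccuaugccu
miR-221-3p: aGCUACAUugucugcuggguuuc

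The classes were first compared by the number of sites. U6 genes took the most sites in both lists, with 37 of the 97 (38.1%) in experiment 1 and 42 of the 113 (37.2%) in experiment 2. U1 genes had 18 sites (18.6% of the 97) and 8 sites (7.08% of the 113). SNORA17 genes had 8 (8.25%) and 22 (19.5%). As shares of the whole lists, U1 made up 2.43% of experiment 1 (interval 1.44 to 3.81) and 0.888% of experiment 2 (0.384 to 1.74). SNORA17 made up 1.08% (0.467 to 2.11) and 2.44% (1.54 to 3.67). For each of these classes the intervals of the experiments overlap, and the difference was not tested. 5S rRNA genes had 8 and 7 sites, 7SK genes 5 and 6, and microRNA genes 8 and 11. The remaining 13 and 17 sites fell to other spliceosomal RNAs and other small nucleolar RNAs, among them U2, U4, U5, U11, U6atac and U3. No class count was set against the number of copies in the genome, so no preference for a class can be read from these numbers.

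**Figure D1:**
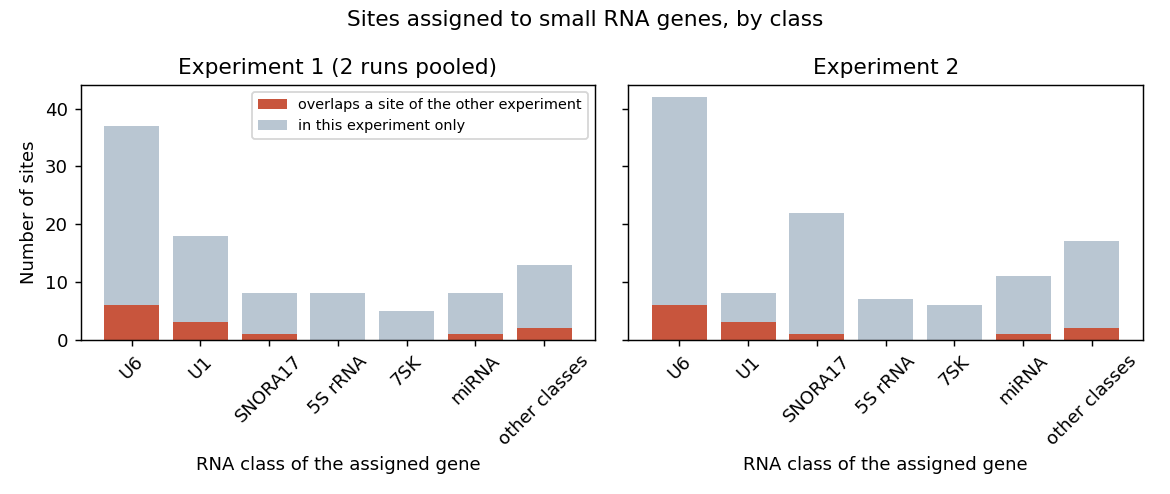
Number of sites (y axis) by RNA class of the assigned gene (x axis) in each experiment, with the part that overlaps a site of the other experiment in red. U6 has the tallest bar in both panels (37 and 42), U1 stands at 18 and 8, SNORA17 at 8 and 22, and 5S and 7SK have no red part.

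In some cases several sites shared 1 assigned gene. The 97 sites of experiment 1 belonged to 81 genes, of which 14 had more than 1 site and together took 30 sites, with at most 3 for 1 gene. In experiment 2 the 113 sites belonged to 104 genes, and 9 genes took 18 sites. The 645 other sites of experiment 1 belonged to 572 genes, and the 788 other sites of experiment 2 to 739. In experiment 1, 37 U6 sites fell to 29 genes and 18 U1 sites to 13. Sites with the same assigned gene are not separate observations of that gene.

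Distance to the assigned gene came next, because it sets how closely a site can be tied to a small RNA gene. The median distance from summit to gene start was 97.4 kb in experiment 1 (interval of the median 53.3 to 211) and 85.3 kb in experiment 2 (36.8 to 114). For all other sites it was 50.7 kb (42.8 to 60.2) and 47.7 kb (41.1 to 54.6). Over 100 kb away lay 48 of the 97 sites (49.5%, against 36.5% of all sites of experiment 1) and 50 of the 113 (44.2%, against 30.6% of all sites of experiment 2). The intervals of the medians for small RNA sites and other sites overlap in both lists, and the difference was not tested. With 1 site kept per assigned gene, the median was 59.5 kb in experiment 1 and 71.3 kb in experiment 2. Among the 50% of sites with the higher score it was 59.5 kb and 62.4 kb. The values of experiment 1 lie inside the interval given for the other sites of that list, and those of experiment 2 lie above theirs. The other sites were not cut in these ways, so this does not compare like with like. Most of these sites are thus not at small RNA genes, and the class name of a site tells only which gene start was nearest.

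Within the classes the distances spread widely. U6 sites had medians of 81.4 kb and 93.5 kb, and none lay within 1 kb of a U6 start in either list. The exact intervals of these shares reach up to 9.49% and 8.41%. Of all sites, 3.91% and 1.78% lay within 1 kb of the assigned start, so no difference can be read from this. The nearest U6 sites were 1.78 kb away in experiment 1 and 1.93 kb in experiment 2. U1 sites had medians of 247 kb in experiment 1 and 20.3 kb in experiment 2, where only 8 sites stand behind the value and they range from 0.069 to 790 kb. SNORA17 sites had medians of 190 kb and 103 kb, with 8.3 kb and 1.73 kb as the nearest. 7SK sites had medians of 34.8 kb and 78.2 kb, microRNA sites 42.8 kb and 34.4 kb, and 5S sites 50.6 kb and 12.9 kb. The classes overlap widely in distance in both lists.

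**Figure D2:**
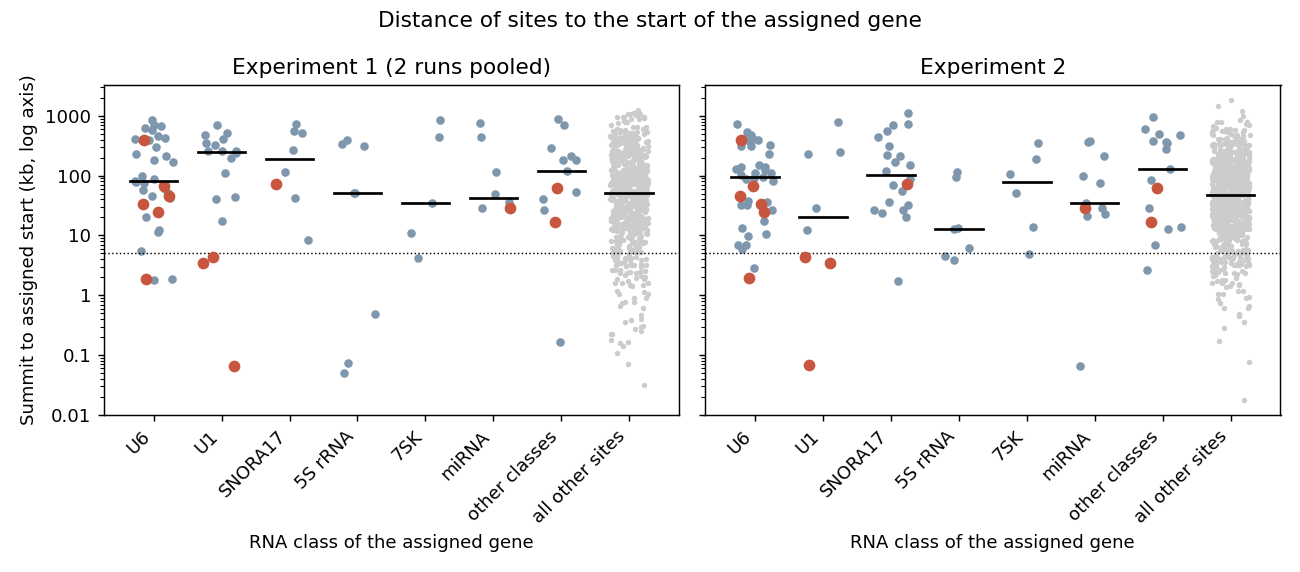
Distance from site summit to the start of the assigned gene in kb (y axis, log scale) by RNA class (x axis) in each experiment. Each point is a site, red points overlap a site of the other experiment, black lines are medians and the dotted line marks 5 kb. Most points lie above that line in every class, and the few lowest points belong to 5S, U1, U2 (among the other classes) and a microRNA.

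Sites close to a small RNA gene were few. Within 5 kb lay 11 of the 97 sites of experiment 1 (11.3%, interval 5.8 to 19.4) and 11 of the 113 of experiment 2 (9.73%, 4.96 to 16.8). Of all sites, 11.7% and 10.7% did so, so these shares are near the background. Within 1 kb lay 5 sites of experiment 1 (5.15%, against 3.91% of all sites) and 2 of experiment 2 (1.77%, against 1.78%). Of the distinct sites of both lists, 18 lay within 5 kb (9.14%, interval 5.51 to 14.1). Sites that overlapped the assigned gene were 4 in experiment 1 and 2 in experiment 2. Of all sites, 15.2% and 19.3% overlapped their assigned gene, whatever its length. The summit itself lay inside the small RNA gene at 4 sites of experiment 1 and 1 of experiment 2.

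The sites within 1 kb belonged to 5S, U1, U2 and microRNA genes. The U1 gene ENSMUSG00000075736 on chromosome 12 (55797769 to 55797932, plus strand, mm9) was the only gene of this set covered by a site in both experiments. Its site had 38 tags at 20.3-fold in experiment 1 (FDR 2.17%) and 22 tags at 17.8-fold in experiment 2 (FDR 54.84%). The summits lay 67 and 69 bp after the gene start, 2 bp from each other. It ranked 46th and 31st by score in the 2 lists.

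5S genes had 3 sites within 1 kb, all in experiment 1. The first covered ENSMUSG00000065107 on chromosome 9 (site 102030112 to 102030713), with 22 tags at 13.3-fold and a summit 51 bp after the start. The second covered ENSMUSG00000070178 on chromosome 11 (74133181 to 74133503), with 15 tags at 8.51-fold and a summit 73 bp after the start. The third lay 481 bp upstream of ENSMUSG00000064554 on chromosome 5 (107829704 to 107830178), with 17 tags at 6.08-fold. These are 3 of 8 sites of the 5S class in experiment 1 (37.5%, interval 8.52 to 75.5) against 0 of 7 in experiment 2 (0%, interval 0 to 41). The intervals overlap, and the difference was not tested. Of all sites, 3.91% of experiment 1 and 1.78% of experiment 2 lay within 1 kb, and the 5S class was not tested against these shares. All 3 of the 5S sites had an FDR of 100%, as did 78.7% of all sites of experiment 1. None of the 3 overlapped a site of experiment 2, and only 14.7% of all sites of experiment 1 did.

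A single site covered a U2 gene, ENSMUSG00000075797 on chromosome 1 (72290813 to 72291086), in experiment 1. It had 14 tags, the lowest number in that list, at 8.37-fold (FDR 100%). The only other site to overlap its gene was in experiment 2, at mir-374 on the X chromosome (100768339 to 100768682), a microRNA gene of the Ftx locus. Its summit lay 66 bp upstream of the start, with 15 tags at 6.49-fold and an FDR of 100%. At both of these genes the other experiment had no site. Absence from a list could not be set against depth.

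Between 1 and 5 kb lay sites of U6, U1, 7SK, 5S, SNORA17 and U2 genes. A site 1.85 kb downstream of the U6 gene ENSMUSG00000065732 on chromosome 17 (84684750 to 84685540) was found in both lists, with 45 tags at 11.9-fold and 12 tags at 9.73-fold. A site 4.35 kb downstream of the U1 gene ENSMUSG00000075978 on chromosome 3 (96136434 to 96137125) was also in both, with 29 tags at 9.16-fold and 14 tags at 7.95-fold. The nearest SNORA17 site, 1.73 kb upstream of ENSMUSG00000077424 on chromosome 5 in experiment 2, had 10 tags at 10.9-fold. The nearest 7SK sites lay 4.22 kb from ENSMUSG00000084611 in experiment 1 (26 tags, 8.37-fold) and 4.97 kb from ENSMUSG00000084582 in experiment 2 (10 tags, 10.8-fold).

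Sites lay on both sides of their genes. Upstream of the start were 45 of the 97 sites (46.4%, against 49.1% of all sites) and 53 of the 113 (46.9%, against 46.4%). U6 sites were upstream in 23 of 37 and 24 of 42 cases, U1 sites in 7 of 18 and 2 of 8, and SNORA17 sites in 3 of 8 and 8 of 22. The shares of the small RNA sites as a whole are near the background, and single classes were not tested.

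The strength of the sites was then compared with that of the other sites. The median fold was 6.91 in experiment 1 (interval 6.28 to 7.33) beside 7.21 for other sites (7.17 to 7.33), and 10.5 in experiment 2 (9.56 to 10.9) beside 10.0 (9.64 to 10.4). Median tags were 19 (18 to 21) beside 22 (21 to 22) in experiment 1, and 11 (10 to 12) beside 11 (11 to 11) in experiment 2. Of the 97 sites, 86 had an FDR of 100% (88.7%, against 78.7% of all sites), and 111 of the 113 did (98.2%, against 96.8%). An FDR of 5% or lower was reached by 7 sites of experiment 1, where 8.22% of all sites did so. In experiment 2 it was reached by 0 small RNA sites and by 0 of all 901 sites. Among the 50 highest scores were 6 and 7 small RNA sites. These lists of 50 hold 6.74% and 5.55% of all sites, and the 6 and 7 are close to those shares of 97 and 113. Most small RNA sites thus had few tags and a low fold, as did most sites of both lists.

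The median fold was then compared by class. In experiment 1 they were 6.66 for U6 (range 4.37 to 35.9), 7.33 for U1 (5.33 to 60.6), 8.97 for SNORA17 (4.89 to 23.3), 8.16 for 5S (5.38 to 13.3), 5.88 for 7SK (4.96 to 8.37) and 6.06 for microRNAs (4.09 to 8.05). In experiment 2 they were 10.1 for U6 (6.42 to 47.4), 10.4 for U1 (7.95 to 36.9), 10.7 for SNORA17 (6.34 to 23.6), 10.2 for 5S (9.03 to 13.6), 10.1 for 7SK (8.03 to 12.7) and 9.27 for microRNAs (6.3 to 15.8). The ranges of the classes overlap in both lists, and the highest value of a class depends on how many sites it has. A fold of 20 or more was reached by 6 of the 97 sites in experiment 1, where 5.26% of all sites reached it, and by 3 of the 113 in experiment 2, where 2.89% did. They were sites of U6, U1, SNORA17 and, in experiment 1 alone, SNORA61, whereas 5S, 7SK and microRNA sites stayed below 16-fold in both lists.

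**Figure D3:**
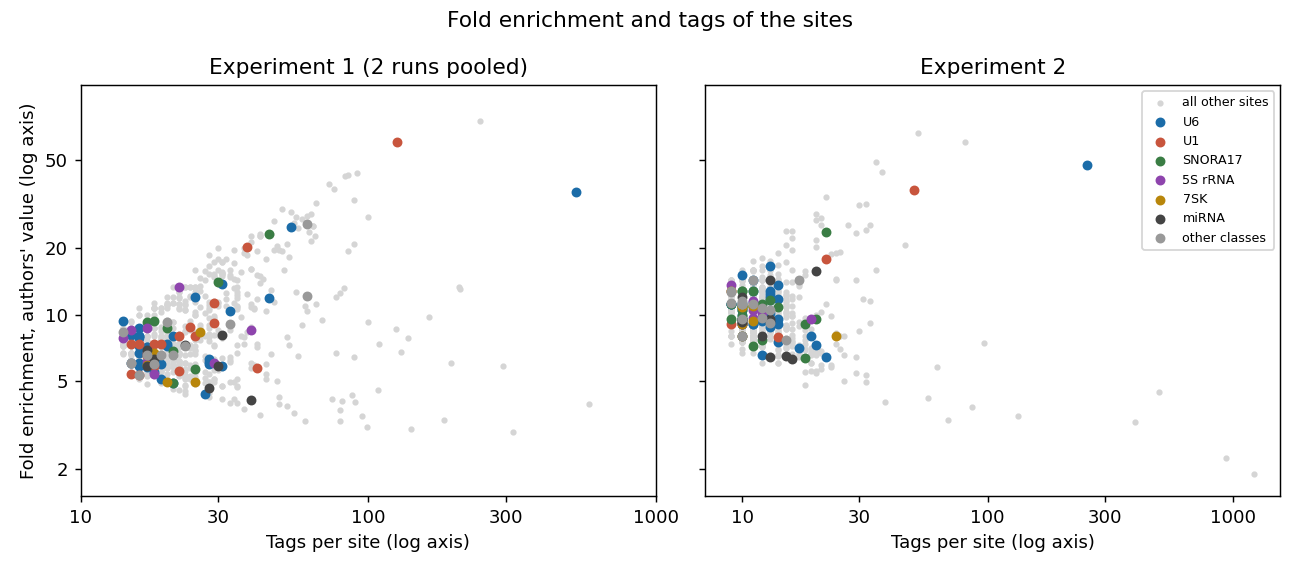
Fold enrichment (y axis) against tags per site (x axis), both on log scales, for each experiment, with small RNA sites coloured by class and all other sites in light grey. Most coloured points sit in the dense lower left with the grey ones. In experiment 1, a U6 site with 525 tags and a U1 site at 60.6-fold stand apart from the other small RNA sites, and the same sites stand apart in experiment 2 with 254 tags and at 36.9-fold.

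Median tags were compared in the same way. In experiment 1 they were 17 for U6, 20.5 for U1, 21 for SNORA17, 17.5 for 5S, 20 for 7SK and 25.5 for microRNAs. In experiment 2 they ran from 10.5 for U1, SNORA17 and 7SK to 13 for microRNAs. Small tag numbers make fold a coarse measure. In experiment 2, 56 of the 113 sites had a fold that at least 3 of them shared, with 12 sites at exactly 9.56, 9 at 11.15, 7 at 12.74 and 4 at 14.34. The last 3 of these values are 1.59 and 1.60 apart, while the tags of the sites behind the value of 12.74 ran from 9 to 13. Differences of this size between weak sites carry no ranking.

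Overlap between the lists served as the only check of 1 experiment by another. Of the small RNA sites, 13 in each list overlapped a site of the other by at least 1 bp, forming 13 pairs. They were 13.4% of the 97 (interval 7.33 to 21.8), beside 14.7% of all sites of experiment 1, and 11.5% of the 113 (6.27 to 18.9), beside 12.4% of all sites of experiment 2. The shares are near the background, and no difference can be read from them. U6 gave 6 of the pairs, U1 3, and SNORA17, SNORA61, U3 and mir-761 gave 1 each. 5S and 7SK gave 0 of 8 and 0 of 5 in experiment 1, where the exact intervals reach up to 36.9% and 52.2%, so sharing of a size like that of the lists could not have been told from none.

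Paired sites had summits 1 to 71 bp apart (median 9 bp). Fold was higher in experiment 1 at 8 pairs and in experiment 2 at 5. The number of tags in experiment 1 was 1.55 to 4.15 times that in experiment 2, with a median of 2.07, in lists whose depths are unknown. Over the 13 pairs, log2 fold in the experiments had a Pearson correlation of 0.819 and fold a rank correlation of 0.72. This describes sites that had to pass the caller in both lists and that share the same input design, and no p-value is given.

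The strongest pair by score was the U6-assigned site on chromosome 12 (70712006 to 70712936), 25 kb upstream of ENSMUSG00000065919. It ranked 1st by score in each list, with 525 tags (564 per kb) at 35.9-fold and 254 tags (309 per kb) at 47.4-fold. Its FDR was 0% in experiment 1 and 100% in experiment 2, so in experiment 2 an FDR of 100% went even with the highest score. The site does not overlap the U6 gene, which lies 25 kb away and is the nearest gene start in the authors' annotation.

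The U1-assigned site on chromosome 7 (85058388 to 85058922) lay 3.45 kb upstream of ENSMUSG00000064940. It had 126 tags (236 per kb) at 60.6-fold in experiment 1 and 50 tags (163 per kb) at 36.9-fold in experiment 2, ranking 3rd and 4th by score. Its fold of 60.6 was the highest of any small RNA site. With the U6-assigned site on chromosome 12, these were the only 2 small RNA sites above 30-fold in either list.

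Below them stood sites of snoRNA and U6 genes with more moderate values. The site 62.4 kb downstream of the SNORA61 gene ENSMUSG00000064850 on chromosome 4 (93149143 to 93149992) had 61 tags at 25.6-fold and 17 tags at 14.3-fold. The site 45.8 kb upstream of the U6 gene ENSMUSG00000065787 on chromosome 1 (146853357 to 146853954) had 54 tags at 24.8-fold and 13 tags at 16.6-fold. It ranked 23rd by score in experiment 1 and 239th in experiment 2. The SNORA17 site, 73.1 kb downstream of ENSMUSG00000077272 on chromosome 8 (98769082 to 98769621), was the closest match in fold, with 45 tags at 23.3-fold and 22 tags at 23.6-fold. Its FDR of 24% was the lowest of any small RNA site in experiment 2.

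The weaker pairs had fold values from 7.86 to 15.8. U6 sites 66.4 kb upstream of ENSMUSG00000075958 on chromosome 4 (13.8-fold and 12.1-fold) and 34.1 kb upstream of ENSMUSG00000065104 on chromosome 11 (12.1-fold and 11.8-fold) differed little between experiments. The site 16.7 kb downstream of the U3 gene ENSMUSG00000084655 on chromosome 5 had 33 tags at 9.06-fold and 9 tags at 12.6-fold. U3 RNA guides cleavage of the ribosomal RNA precursor. The site 398 kb upstream of the U6 gene ENSMUSG00000064969 on chromosome 1 had 16 tags at 7.86-fold and 10 tags at 11.1-fold. Of the 13 pairs, 5 had an FDR of 100% in both lists and 7 had an FDR of 5% or lower in experiment 1. Of the 96 shared sites of other genes in experiment 1, 35 had an FDR of 5% or lower in that list and 15 had one of 100%.

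**Figure D4:**
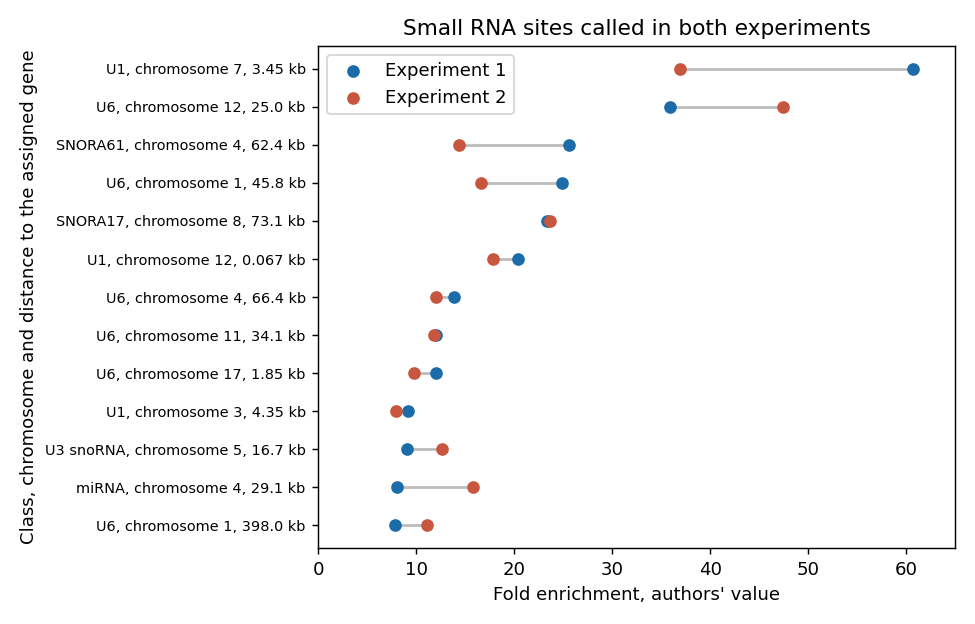
Fold enrichment (x axis) of the 13 small RNA sites found in both experiments (blue, experiment 1; red, experiment 2), each row named by class, chromosome and distance to the assigned gene. The U1 site on chromosome 7 and the U6 site on chromosome 12 lie above 30-fold in both experiments, the SNORA17 site on chromosome 8 has nearly equal values (23.3 and 23.6), and the lower rows lie between 7.86 and 15.8.

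Shared sites had a smaller median distance and a higher median fold than unshared ones, and the same was true of sites of other genes. None of these differences was tested. A shared site had to pass the caller in both lists, so a higher fold is partly built into the grouping. In experiment 1 the median distance was 29.1 kb at the 13 shared and 175 kb at the 84 unshared small RNA sites, beside 27.3 kb and 57.5 kb at other sites. In experiment 2 it was 29.1 kb and 97 kb, beside 25.6 kb and 53.8 kb. The median fold was 13.8 at shared and 6.58 at unshared small RNA sites of experiment 1, and 14.3 and 9.75 in experiment 2. At other sites it was 15.5 and 6.74, and 14.3 and 9.58. All 100 unshared small RNA sites of experiment 2 had an FDR of 100%, and so did 81 of the 84 of experiment 1 (96.4%). Of the unshared other sites, 99.7% and 88% did. Over 100 kb from the gene lay 1 of the 13 shared small RNA sites, 47 of the 84 unshared ones of experiment 1 and 49 of the 100 of experiment 2. At other sites the order was the same, with 17.7% of shared and 37.5% of unshared sites in experiment 1, and 17.2% and 30.3% in experiment 2.

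Sharing an assigned gene was not the same as sharing a site. Both lists had a site for 24 small RNA genes, and at 13 of them the sites overlapped. At the other 11 genes the nearest summits of the 2 lists were 4.31 to 1287 kb apart. The closest of these was the SNORA17 gene ENSMUSG00000077441 on chromosome 3, with a 4.89-fold site in experiment 1 and an 11.2-fold site in experiment 2 that lay 4.31 kb apart, both over 700 kb from the gene. A list of assigned genes would therefore count 24 genes in common where 13 had a common site. The same count was not made for the genes of other sites, so nothing particular to small RNA genes can be read from it.

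MicroRNA genes had 19 site calls over both lists. mir-761 was the only one with a shared site, 29.1 kb downstream on chromosome 4 (108719163 to 108719723), with 31 tags at 8.05-fold and 20 tags at 15.8-fold. A further site of experiment 2 lay 22.7 kb downstream of the same gene (108712839 to 108713209), with 13 tags at 9.56-fold. The fold of 15.8 at the shared site was the highest of any microRNA site, and that site ranked 43rd by score in experiment 2 but 390th in experiment 1.

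Of the 3 well studied microRNAs named above, none had a site within 5 kb. Only 11.7% of all sites of experiment 1 and 10.7% of experiment 2 lay within 5 kb of their assigned start. The site assigned to mir-17, the founding member of an oncogenic cluster, lay 363 kb upstream on chromosome 14 (10 tags, 9.27-fold). That of mir-221, which is often raised in liver cancer, lay 97.9 kb downstream on the X chromosome (12 tags, 8.03-fold). Both were sites of experiment 2. That of mir-204, a microRNA abundant in retinal pigment epithelium, lay 48.8 kb upstream on chromosome 19 in experiment 1 (28 tags, 4.64-fold). All 3 had an FDR of 100% and no overlap with the other list. An FDR of 100% was held by 78.7% of all sites of experiment 1 and 96.8% of experiment 2. Only 14.7% and 12.4% of all sites overlapped the other list, so nothing about these 3 microRNAs can be read from this.

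The remaining microRNA sites were of the same order. In experiment 1 they were assigned to mir-2134-4 (36.9 kb, 7.31-fold), mir-216b (29.3 kb, 5.87-fold), mir-653 (31.5 kb, 5.83-fold), mir-1187 (115 kb, 6.91-fold) and mir-592, which had 2 sites 772 kb and 447 kb away (6.26-fold and 4.09-fold). In experiment 2 they were assigned to mir-875 (28.3 kb, 6.45-fold), mir-879 (21.4 kb, 12.1-fold), mir-135a-2 (216 kb, 6.3-fold) and mir-466f-4 (377 kb, 9.37-fold). The genes mir-873 and mir-876 start 23.1 kb from each other on chromosome 4, and in experiment 2 each had a site on its outer side, 34.4 kb upstream of mir-873 (14.3-fold) and 75.9 kb downstream of mir-876 (9.25-fold). The FDR was 100% at every microRNA site of both lists, as it was at 78.7% of all sites of experiment 1 and 96.8% of experiment 2.

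No unshared small RNA site had a fold of 20 or more in either list, and among unshared other sites 4 of 549 did in experiment 1 and 1 of 689 in experiment 2. The highest fold among the 84 unshared sites of experiment 1 was 13.99, at a SNORA17 site 521 kb from ENSMUSG00000077224 on chromosome 14 (30 tags, FDR 35.45%). A site 26.2 kb from the U11 gene ENSMUSG00000077317 on chromosome 18 had 61 tags at 12.2-fold. The highest unshared U1 site lay 256 kb from ENSMUSG00000064403 on chromosome 7 (29 tags, 11.3-fold). In experiment 2 the highest unshared value was 15.1, at a U6 site 36.8 kb from ENSMUSG00000075929 on chromosome 19 (10 tags). In that list 3 SNORA17 sites shared the highest unshared value of their class, 12.74, with 10 or 11 tags, at ENSMUSG00000077507, ENSMUSG00000077521 and ENSMUSG00000077785.

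5S and 7SK sites, none of which were shared, had their highest values at single genes. For 5S these were the site at 13.3-fold described above and one 50.7 kb from ENSMUSG00000065149 (17 tags, 8.66-fold) in experiment 1. In experiment 2 they were one 3.87 kb from ENSMUSG00000084472 (9 tags, 13.6-fold) and one 6.18 kb from ENSMUSG00000064519 (11 tags, 11.6-fold). For 7SK the highest were the site near ENSMUSG00000084611 given above and one 852 kb from ENSMUSG00000084741 (18 tags, 6.66-fold) in experiment 1. In experiment 2 they lay 106 kb from ENSMUSG00000084502 (9 tags, 12.7-fold) and 194 kb from ENSMUSG00000084627 (11 tags, 10.9-fold). The FDR was 100% at each 5S and 7SK site of both lists, as it was at 78.7% and 96.8% of all sites.

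The genes that make and process small RNAs were examined beside the RNA genes themselves. Of 73 such genes, 1 was named by symbol at a site of experiment 1 and 0 at a site of experiment 2. Of the 21900 protein-coding genes of RefSeq (GRCm38.p6), matched by current symbol, 1.04% and 1.44% were so named, and nothing about the 73 can be read from counts this small. It was Polr3e, a subunit of RNA polymerase III, with a site 275 bp upstream of its start (27 tags, 15.7-fold, FDR 17.24%). The other 29 genes for transcription of small RNA genes had none. None was found either for the 7 genes of the 7SK particle and its partner, the 7 of the H/ACA particle, the 20 of the U1 and U6 particles or the 9 of microRNA maturation. Sites without a symbol could not be matched to this list, so its counts are minimum numbers.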

How the data were processed

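ChIP-seq of V5-tagged KLF6 (1 sample) was set against input DNA (1 sample). Per the file headers, the deposited values of a site are its tag count (not normalised), a score (−log10 of the p-value times 10), a fold enrichment (a ratio) and an FDR in percent, all as the authors computed them. The submitters' processing notes name MACS 1.3.6 and mm9 but no role. The aligner and its settings are not stated in the sources used here. Depth per sample is unknown. Coordinates are in mm9 as deposited.

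Each of the 1643 site calls had been assigned by the authors to the nearest gene start. Distance equalled summit minus start, signed by strand, at every site. Sites overlapping by at least 1 bp were called shared. Shares have exact Clopper-Pearson intervals and medians order-statistic intervals, both at 95%. The code was tested on simulated data (Python 3.11.15, pandas 2.3.3, SciPy 1.17.1).

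Sites were named by rule: each shared site, each within 1 kb of or overlapping its gene, the 2 highest folds of 6 classes in each list and each microRNA. Others were picked after their values were seen. Members and lists were chosen with earlier results of these data known. Alternatives covered score, sites per gene, source database, windows and overlap rules.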

Additional observations from a re-analysis of the deposited data

How the results depend on the processing

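No paired analysis was possible because each group has 1 sample and the lists hold no values per library. Of 52 alternatives, 36 kept a count within 1.5 times, or a median or share within its 95% interval, and 16 moved. Among the 50% of sites with the higher score, small RNA sites numbered 43 in experiment 1 and 65 in experiment 2, 6 and 7 of them lay within 5 kb, median tags were 25 and 13, and the median fold of experiment 1 was 8.5, as fewer and stronger sites imply. Within 100 kb of the start, 49 and 63 sites were left. With 50% of each site in common, 8 were shared in each list. A window of 1 kb held 5 and 2 sites, and one of 10 kb held 17 in experiment 2. Shared sites alone had a median fold of 13.8 and 14.3. Leaving out an experiment, the share of distinct sites within 5 kb ran from 9.73% to 11.3%. Depth, which is unknown, limits what absence from a list can show.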
